A study of Mus musculus with 16 samples.

Results

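The promoters of Kmt2a and Suz12 were described in chromatin immunoprecipitation with sequencing (ChIP-seq) data from mouse neural progenitor cells. Both were chosen by the listed signal itself, as stretches that hold listed windows in all 9 ChIP libraries. They are 2 of 10 such stretches, which make up 0.0019% of the 525774 stretches with signal in any library. They comprise the 50 bp windows of the files that lie in mm9 chr9:44684000-44695000 (Kmt2a) and chr11:79802000-79811000 (Suz12). Being listed everywhere is therefore not a result, and no value below was tested. The name promoter comes from that choice of ranges. No mm9 gene annotation was used here, so neither start site was placed on the windows.

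Neural progenitor cells had been derived from V6.5 mouse embryonic stem cells, with 4 days as embryoid bodies, and were crosslinked with 1% formaldehyde. Untreated cells gave 2 libraries of Cbx3 (sets 1 and 2) and 1 of RNA polymerase II (Pol II). Cells transfected 72 hours before harvest with an siRNA against luciferase (control siRNA) or against Cbx3 (Cbx3 siRNA) gave 1 library each of Pol II, Med26 and Cdk8. With 1 library per antibody and arm, no difference between arms has a replicate check, and the labels do not say whether the Cbx3 sets came from separate cultures. The level of Cbx3 after the knockdown and the markers of neural progenitors were not analysed here. The 7 input libraries were not used here, so signal common to all antibodies cannot be told apart from signal particular to each.

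Kmt2a encodes a histone H3 methyltransferase of the trithorax group, known for keeping developmental genes active. Suz12 encodes a core subunit of Polycomb repressive complex PRC2, which methylates histone H3 at silent developmental genes. The trithorax and Polycomb groups are known to act against each other at shared target genes. Cbx3 (HP1 gamma) binds methylated histone H3 and is found in heterochromatin as well as at transcribed genes. Mediator links transcription factors to Pol II. Med26 is a subunit of it that is known to recruit elongation factors, and Cdk8 is the kinase of a detachable Mediator module that is largely absent from Mediator carrying Med26.

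The promoter sequences are shown to describe the base composition and motifs at the start of both genes. They are those of RefSeq for GRCm38.p6, another build than that of the files. Each runs 5′ to 3′ in the direction of its gene, from 250 bases before the start site to 50 bases after its first base. Kmt2a is at GRCm38.p6 chr9:44881240-44881539 on the minus strand, and Suz12 at GRCm38.p6 chr11:79992856-79993155 on the plus strand. These coordinates were not converted and cannot be set beside those of the windows, so which antibodies covered these bases was not determined. Among protein-coding genes in that annotation Kmt2a lies between Ttc36 and Atp5l, and Suz12 between Utp6 and Crlf3. Capitals mark GGGCGG (the GC box) on either strand and CCAAT.
Kmt2a: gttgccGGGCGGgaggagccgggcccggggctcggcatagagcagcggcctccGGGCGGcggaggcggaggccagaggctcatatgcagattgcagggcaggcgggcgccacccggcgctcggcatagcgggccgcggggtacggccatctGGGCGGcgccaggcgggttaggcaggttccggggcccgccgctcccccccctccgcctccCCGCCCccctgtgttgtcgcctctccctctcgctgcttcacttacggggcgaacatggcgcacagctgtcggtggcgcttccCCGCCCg
Suz12: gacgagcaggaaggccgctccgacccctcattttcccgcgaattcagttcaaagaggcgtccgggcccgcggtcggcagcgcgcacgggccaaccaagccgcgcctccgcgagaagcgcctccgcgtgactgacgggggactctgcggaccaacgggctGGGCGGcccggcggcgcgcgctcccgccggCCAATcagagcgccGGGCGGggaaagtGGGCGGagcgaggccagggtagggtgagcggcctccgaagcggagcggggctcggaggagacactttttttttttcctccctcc

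Both promoters are rich in CG dinucleotides. The Kmt2a sequence holds 36 and the Suz12 sequence 41, against a median of 7 over 32851 promoters of the same length, and 93.8% and 96.5% of promoters hold fewer. GC content is 75.7% and 71.0%, against a median of 52.7%. GGGCGG occurs 5 times at Kmt2a and 3 times at Suz12, with no overlap between matches, and in 35.7% of all promoters. CCAAT occurs once, at Suz12, and in 37.4% of all promoters. TATAAA (in 13.6% of all promoters), CCGGAAG (8.86%), CACGTG (7.15%), TGACGTCA (1.79%), AAGATGGCG (1.40%) and the NRF1 consensus (0.971%) match neither sequence on either strand. A match is a description of these letters and shows no binding.

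The libraries differed widely in what they list, from 2721 windows for Med26 after Cbx3 siRNA to 923942 for Cbx3 set 1, with lowest listed values of 6.01 to 9.02. Every value of a file was a multiple of that file's smallest step, with a tolerance of 0.05 steps. A read covering a whole window was inferred to be worth 50 steps, an inference that gives the read equivalents below and leaves library depth unknown. Within each siRNA pair the step was the same, so values were compared as deposited and also relative to the median difference of all windows listed in both libraries. That median, as log2 of Cbx3 siRNA over control, was -0.29 for Pol II, -0.64 for Med26 and 0.10 for Cdk8. Regions did not always taper to the lowest listed value. Of listed windows beside an unlisted one, 6.40 to 94.7% in the different libraries held at least 2 times that value. The signal of unlisted windows is not given, so whether listing followed signal alone was not determined. Listed width therefore need not equal the width of a peak.

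At the Kmt2a promoter, Med26, Cdk8 and Cbx3 had their highest signal at 1 narrow site, and Pol II had its highest signal beside that site. All 6 libraries of the first 3 factors peaked in 3 adjacent windows from 44689451 to 44689600 on chromosome 9. All 3 Pol II libraries peaked in the window from 44689751 to 44689800, which is 250 bp from the highest Med26 window, toward higher coordinates. By the RefSeq strand, lower coordinates lie in the direction of Kmt2a transcription. Listed windows of any library covered 1750 bp, spread over 2400 bp. No window was listed by all 9 libraries, and 4 windows were listed by 7.

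**Figure D1:**
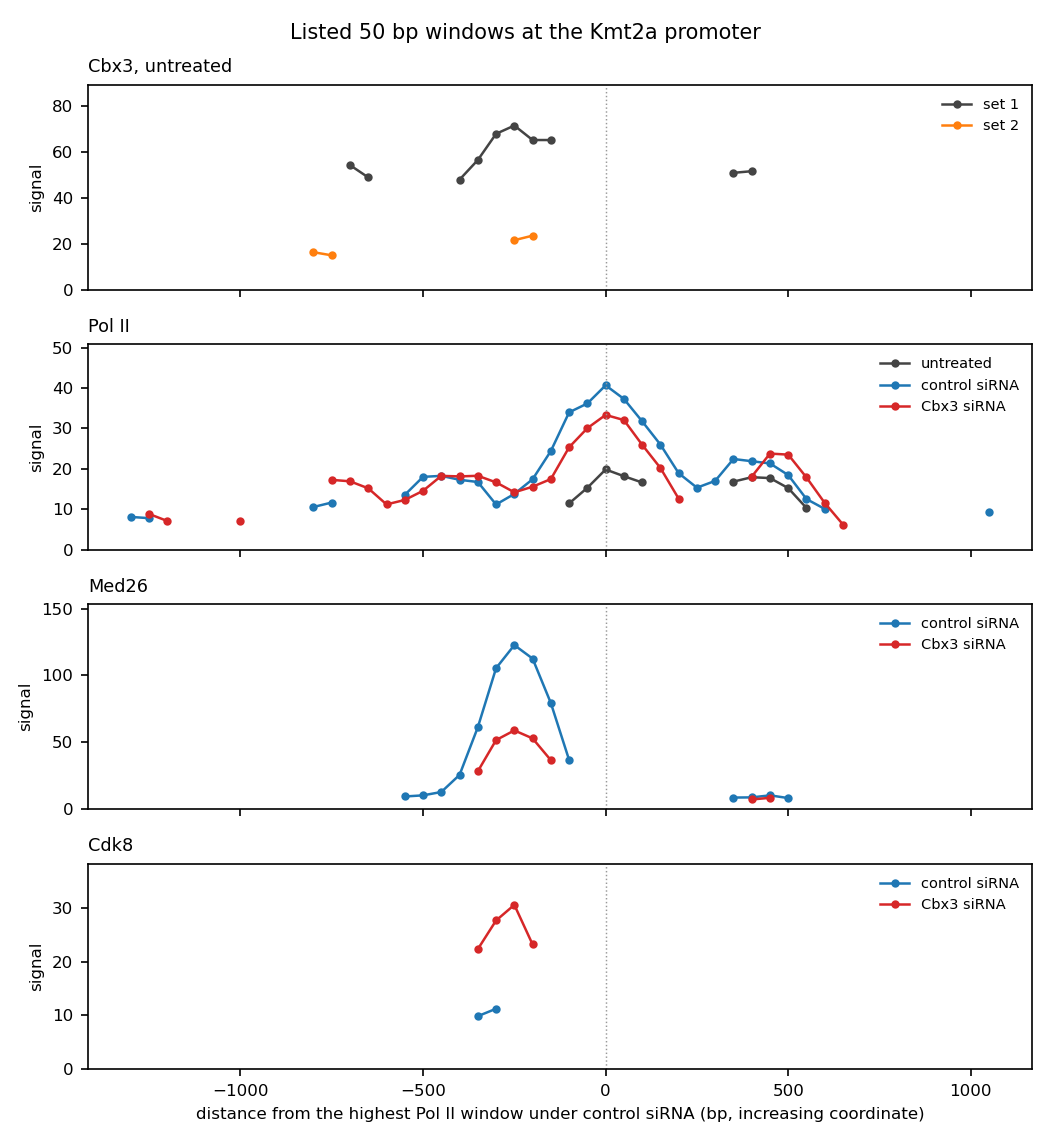
Signal of each listed 50 bp window at the Kmt2a promoter, by antibody (panels) and library (colours), against the distance of the window from the highest Pol II window under control siRNA in bp; gaps in a line are unlisted windows. Med26, Cdk8 and Cbx3 peak 200 to 300 bp to the left of the Pol II maximum at 0. Within that stretch Pol II has a local low point in both siRNA arms, and untreated cells list no Pol II window there.

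Pol II at Kmt2a had a main maximum between smaller ones. Under control siRNA the main maximum was 40.7, with further maxima of 18.2 at 450 bp toward lower and of 22.4 at 350 bp toward higher coordinates. Between the first of these and the main one, Pol II dipped to 11.2 in the window from 44689451 to 44689500. In the window where Med26 peaked it was 13.8, or 33.9% of its own highest value. Over the 4235 Med26 control regions with Pol II listed at the Med26 maximum, the median was 80.5%, and 4.06% of them were as low as Kmt2a. The separation itself was less unusual, since 24.6% of 4484 Med26 regions overlapping Pol II peaked at least 250 bp from the Pol II maximum (median 100 bp).

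Med26 was the factor with the highest rank at Kmt2a. Its control siRNA library reached 123, the equivalent of 127.5 reads, against a median listed window of 9.82. This made Kmt2a rank 4 of 5990 Med26 regions. After Cbx3 siRNA the highest window was 59.0, the equivalent of 61.3 reads, at rank 2 of 1745. The Med26 peak was narrow in both arms: windows at or above 50% of the highest value spanned 200 bp, from 44689451 to 44689650. A separate low patch of Med26, up to 10.4 under control and 8.58 after Cbx3 siRNA, lay 450 bp from the Pol II maximum on the other side.

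Between the arms, Med26 at Kmt2a differed by a log2 of -1.06 in its highest window (Cbx3 siRNA minus control), and listed width was 700 bp under control and 350 bp after Cbx3 siRNA. All 7 windows listed after Cbx3 siRNA were also listed in the control, and all 7 were lower, as were 91.1% of the 953 windows listed in both libraries genome-wide. Of Med26 regions listed in both arms, 20.7% had a highest window at least 2-fold lower after Cbx3 siRNA, as Kmt2a did. Relative to the median of all shared windows the difference was -0.42, and scaling by summed listed signal, a sum that moves with the number of windows listed, turned it to 1.77. The 5 shared windows of the peak differed by -1.11 to -1.03, and the 2 of the low patch by -0.28 each. The low patch cannot be compared with the peak in this respect, since its windows lay close to the lowest listed value of 6.01 and a difference as large as that of the peak would have left them unlisted; its other 2 control windows were not listed after Cbx3 siRNA. Genome-wide 8.61% of Med26 control regions were listed again after Cbx3 siRNA. At Kmt2a and Suz12 the region with the highest window was listed again, while the second control patch at Suz12 was not. Choosing stretches with windows in both arms made such overlap more likely but did not require it.

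Cdk8 at Kmt2a was low under control siRNA and higher after Cbx3 siRNA. The control library listed 2 windows with signals of 9.84 and 11.2, and its highest window was the equivalent of 7.96 reads. After Cbx3 siRNA 4 windows were listed, with signals of 22.3, 27.6, 30.5 and 23.2, and the highest was the equivalent of 21.7 reads. All 4 values lie above the 2 of the control, but adjacent windows of 1 peak are not separate observations. How often other regions listed in both arms separate in this way was not counted. In its highest window Cdk8 differed by a log2 of 1.44, or 1.34 relative to the genome-wide median, with the same sign under every scaling tried. This lay at percentile 99.6 of the 787 Cdk8 regions listed in both arms, of which 2.16% were at least 2-fold higher. Both windows listed in both arms were higher after Cbx3 siRNA, as were 57.9% of all such windows. The promoter moved from rank 797 of 5574 Cdk8 regions to rank 217 of 6094. Few reads stand behind the control value. Genome-wide 11.4% of Cdk8 control regions were listed again; that of Kmt2a was too, but both arms being listed was part of the choice.

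Pol II at Kmt2a kept its listed width between the arms, with 1450 bp in each and 1150 bp in common. Its highest window was 40.7 under control and 33.3 after Cbx3 siRNA, a log2 difference of -0.29 that equals the genome-wide median to within 0.0011 and turned to 0.11 with scaling by summed listed signal. Neither promoter reached a 2-fold lower highest window for Pol II, as 3.63% of 11325 regions did. Over the 23 shared windows 12 were lower, 10 higher and 1 equal after Cbx3 siRNA, while 74.2% of all shared Pol II windows were lower. The split followed position, in segments chosen after the profiles were seen. All 8 windows of the main maximum were lower, by -0.59 to -0.22. Of the 10 windows toward lower coordinates 6 were higher, and of the 5 around the maximum toward higher coordinates 4 were higher, with medians of 0.05 and 0.20. Kmt2a ranked 1586 of 16073 Pol II regions by highest window under control and 1542 of 16426 after Cbx3 siRNA. By width it stood higher, at 190 and 75. These ranks compare the region with the highest window, which held 1300 bp under control and 1450 bp after Cbx3 siRNA. The other control windows lay in separate regions. Genome-wide 67.9% of control Pol II regions were listed again, as were those with the highest window at both promoters, which were chosen for being listed in both arms.

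Untreated cells gave a lower and narrower Pol II signal at Kmt2a than control siRNA cells, in libraries whose steps differ. The untreated library listed 500 bp with a highest window of 19.8, at rank 2963 of 8183 regions. Its 10 windows were all listed under control siRNA, and all 10 were higher there, as were 88% of shared windows genome-wide. The log2 difference in the highest window, control minus untreated, was 1.04, against a median of 0.60 for all shared windows, and dividing by summed listed signal turned it to -0.73. Around the main maximum the 5 shared windows differed by 0.94 to 1.57, and around the maximum toward higher coordinates by 0.27 to 0.42. The untreated library thus had 2 nearly equal maxima, 19.8 and 17.9, where the control library had 40.7 and 22.4. A difference of at least 2-fold, as at Kmt2a, was found at 21.8% of 7304 regions. Of untreated regions 94.9% were listed under control siRNA.

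Cbx3 at Kmt2a was listed over 500 bp in set 1 and 200 bp in set 2. Set 1 had its highest value, 71.4, in the same window as Med26, and set 2 its highest, 23.5, in the next window. The sets use different steps, so only their positions and ranks were compared. In set 1 Kmt2a ranked 2957 of 419145 regions (0.705% from the top) and in set 2 it ranked 6566 of 126451 (5.19%). Each set also had a patch toward lower coordinates, with 48.8 and 54.2 in set 1 and 15.0 and 16.3 in set 2, and these patches did not share a window. Set 1 alone had a further patch of 50.8 and 51.5 toward higher coordinates. Regions of set 1 overlapped a set 2 region in 3.29% of cases genome-wide, and both promoters, chosen for being listed in both sets, were among these.

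At the Suz12 promoter the factors did not meet at 1 site. Cbx3 peaked at the side of lower coordinates and Med26 at the other, with Pol II maxima between and beside them. From low to high on chromosome 11, the highest windows began at 79806001 and 79806051 for Cbx3 sets 1 and 2, and at 79806201 for Cdk8 under control siRNA. Those of Pol II under control siRNA began at 79806601 and those of Cdk8 after Cbx3 siRNA at 79806701. Both Med26 libraries and the other 2 Pol II libraries peaked in the window from 79806751 to 79806800. By the RefSeq strand, higher coordinates lie in the direction of Suz12 transcription. Listed windows of any library covered 1250 bp, and the most shared window, at 79806751, was listed by 6 libraries.

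**Figure D2:**
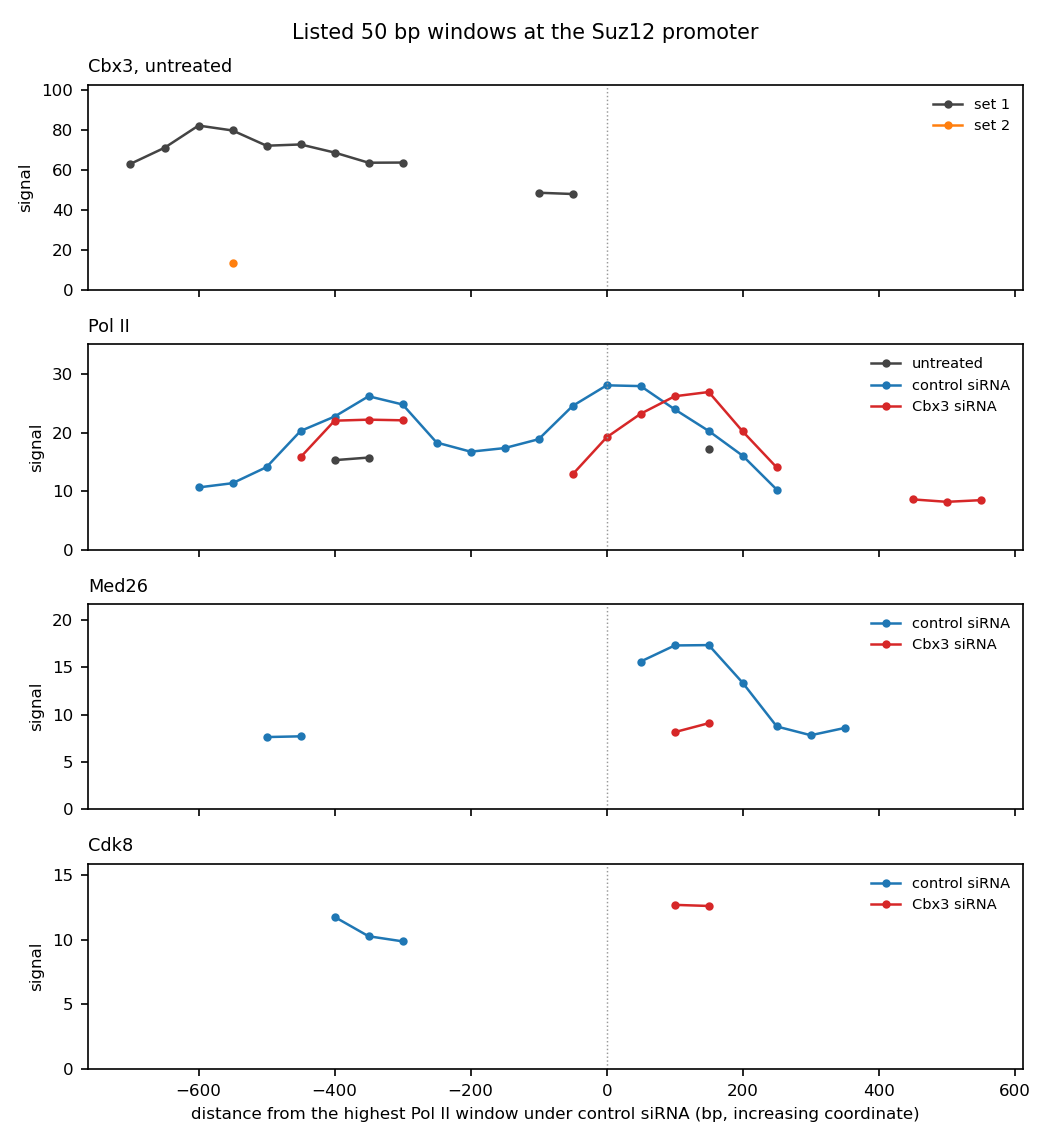
Signal of each listed 50 bp window at the Suz12 promoter, by antibody (panels) and library (colours), against the distance of the window from the highest Pol II window under control siRNA in bp; gaps in a line are unlisted windows. Cbx3 peaks 550 to 600 bp to the left of the Pol II maximum and Med26 150 bp to its right, while the Cdk8 windows of the 2 arms lie apart.

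Pol II at Suz12 had 2 main maxima, which were of nearly the same height under control siRNA. Under control siRNA they were 26.2 at 79806251 and 28.1 at 79806601, 350 bp apart, joined by listed windows that went down to 16.7. After Cbx3 siRNA they were 22.2 at 79806251 and 27.0 at 79806751, 500 bp apart, with 4 unlisted windows between them. A further, low maximum of 8.58 lay at 79807051 in that arm. Untreated cells listed only 3 windows here, of 15.3 and 15.7 at the first maximum and 17.3 at 79806751. The position of the first maximum was thus the same in both arms, and the second lay 150 bp farther after Cbx3 siRNA. Shifts of at least 150 bp from the control maximum were seen at 19.9% of 11185 Pol II regions of the Cbx3 siRNA library. By highest window Suz12 ranked 4340 of 16073 Pol II regions under control and 2983 of 16426 after Cbx3 siRNA, and 4128 of 8183 in untreated cells. From control to Cbx3 siRNA this was 27.0 to 18.2% from the top, but by region sums it was 8.51 to 9.66% and by widths 5.06 to 7.14%, so the order of the arms depended on what was ranked. The untreated region stood at 50.4% by highest window and at 85.0% and 84.8% by sum and width. It held only the 50 bp window at 79806751, since the untreated windows at the first maximum formed a separate region.

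Between the arms, the highest Pol II window at Suz12 differed by a log2 of -0.06, which was 0.23 relative to the genome-wide median and 0.34 with scaling by summed listed signal. The median over shared windows was -0.17, and the sum over listed windows, 353 under control and 250.1 after Cbx3 siRNA, differed by -0.50. Listed width was 900 bp under control and 700 bp after Cbx3 siRNA, with 550 bp in common. Over the 11 shared windows 7 were lower and 4 higher after Cbx3 siRNA, while 74.2% of all shared Pol II windows were lower. All 4 shared windows of the first maximum were lower. Of the 7 shared windows of the second, the 3 toward lower coordinates were lower, by up to -0.93, and the other 4 higher, by up to 0.45. The control library was higher than the untreated one in all 3 windows they share, as it was in 88% of shared windows genome-wide. Its highest window differed from the untreated one by a log2 of 0.70, or 0.10 relative to the genome-wide median, and by -1.06 with scaling by summed listed signal.

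Med26 at Suz12 was far weaker than at Kmt2a in the same libraries. The control library listed 9 windows in 2 patches, with a highest value of 17.3, the equivalent of 18 reads, at rank 392 of 5990. After Cbx3 siRNA 2 windows were listed, with 8.14 and 9.09, the latter the equivalent of 9.44 reads, at rank 415 of 1745. Listed width was 450 bp under control and 100 bp after Cbx3 siRNA. The highest window stayed in place and differed by a log2 of -0.93, which was -0.29 relative to the median of all shared windows and 1.90 with scaling by summed listed signal. This was close to the -1.06 of the Kmt2a peak. Suz12 stood at 6.54% from the top under control and 23.8% after Cbx3 siRNA, and Kmt2a within the top 0.115% in both arms. The rank number of Suz12 was similar, at 392 and 415, so its change in percent reflects the shorter list of 1745 regions against 5990.

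Cdk8 at Suz12 was listed at different places in the 2 arms. Under control siRNA it covered 150 bp from 79806201 to 79806350 with signals of 11.8, 10.3 and 9.87, over the first Pol II maximum. After Cbx3 siRNA it covered 100 bp from 79806701 to 79806800 with signals of 12.7 and 12.6, over the Med26 peak. The highest windows were the equivalents of 8.34 and 9 reads and lay 500 bp apart, and no window was shared, so the control region of Suz12 was not listed again. Their log2 difference of 0.11 therefore compares different sites, and it turned to -0.041 with scaling by summed listed signal. By rank, Suz12 stood at 689 of 5574 Cdk8 regions under control and 601 of 6094 after Cbx3 siRNA.

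Cbx3 at Suz12 differed between its sets more than at Kmt2a. Set 1 listed 550 bp with a highest value of 82.4 in the window from 79806001 to 79806050, at rank 1311 of 419145 regions (0.313% from the top). Set 2 listed a single window, from 79806051 to 79806100, with 13.5, the equivalent of 6.18 reads, at rank 57463 of 126451 (45.4%). That 1 window is what places Suz12 among the stretches listed in all 9 libraries. The highest window of set 1 lay 600 bp from that of control Pol II, a distance reached by 4.41% of 6868 Cbx3 regions of set 1 that overlap Pol II. It also lay 750 bp from the highest Med26 window, whereas at Kmt2a the highest windows of Cbx3 set 1 and Med26 coincided.

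**Figure D3:**
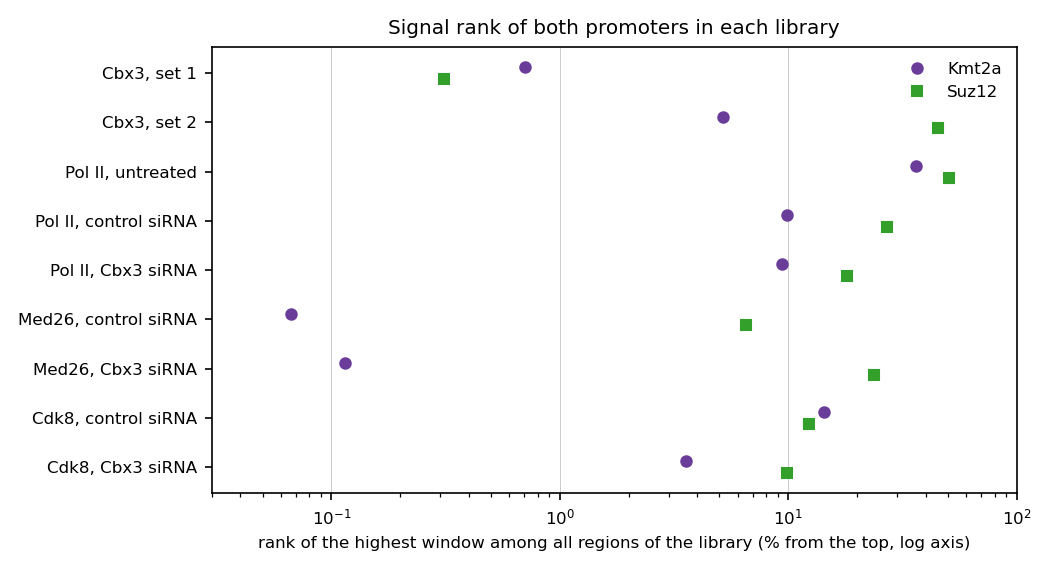
Rank of the highest window at each promoter among all regions of the same library, as percent from the top on a log axis, with 1 row per library. Kmt2a stands highest in Med26, within the top 0.115% in both arms, while Suz12 stands highest in Cbx3 set 1, at 0.313%. In Cbx3 set 2 Suz12 stands at 45.4%.

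Set side by side, the promoters ranked differently by factor. Kmt2a stood above Suz12 in both Med26 libraries, all 3 Pol II libraries, Cbx3 set 2 and Cdk8 after Cbx3 siRNA. Suz12 stood above Kmt2a in Cbx3 set 1 and in Cdk8 under control siRNA, by 689 against 797. That Cdk8 order rests on nearly equal highest windows, the equivalents of 8.34 reads at Suz12 and 7.96 at Kmt2a. Among the 10 stretches listed in all 9 libraries, Kmt2a had rank 2 for Med26 in both arms, and rank 8 for Cbx3 set 1 where Suz12 had rank 2. In Cbx3 set 2 this order was reversed, with rank 3 for Kmt2a and rank 10 for Suz12. For Pol II under control siRNA, Kmt2a had rank 5 and Suz12 rank 9.

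**Figure D4:**
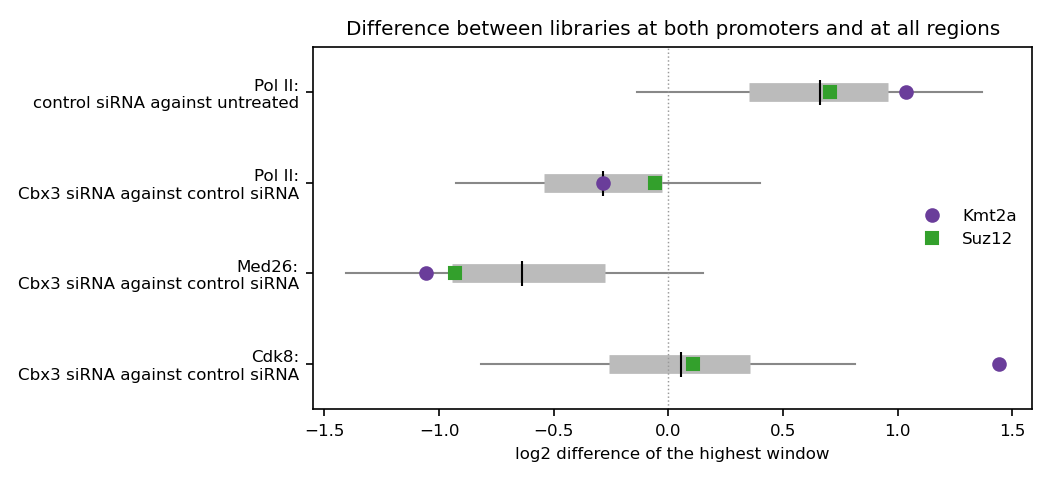
Log2 difference of the highest window between libraries at Kmt2a (circles) and Suz12 (squares), with the median (tick), the 25th to 75th percentile (bar) and the 5th to 95th percentile (line) over all regions listed in both libraries. Cdk8 at Kmt2a, at 1.44, lies outside the line, and the other 7 points lie within theirs. The Suz12 point for Cdk8 compares sites 500 bp apart, is not itself a region listed in both libraries, and gives no direction.

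The stretches most like each promoter were found by the mean absolute difference, over the 9 libraries, of the percentile of the highest window among the regions of its library. For Kmt2a they were chr19:55390251-55391250 (6.75 percentile points), chr17:39979851-39985900 (8.81) and chr3:97817151-97817750 (12.8), all in mm9. For Suz12 they were chr1:134313801-134314600 (12.3), chr7:31373451-31375050 (16.9) and again chr19:55390251-55391250 (17.2). Kmt2a and Suz12 differed from each other by 13.2 points, so Suz12 was nearer to Kmt2a than to all but 1 of the other 8. The distance of each range to other signal was not set against the usual spacing of listed windows. Outside the Kmt2a range the nearest listed window of any library was 9600 bp below and 21151 bp above it, and outside the Suz12 range 8900 bp below and 37901 bp above it.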

How the data were processed

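The members and the promoter motifs were chosen with earlier results of these data known. The deposited files, 1 per library, hold 50 bp windows and the signal the authors computed for each. Bowtie and mm9 are named, with no version, per the submitters' processing notes. How windows were tested, cut off and scaled, and how inputs entered, is not stated there. Positions are 1-based mm9 coordinates as deposited.

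Regions were formed by joining windows with gaps of up to 200 bp and were ranked within their library by highest window. A shared length of 1 bp counted as overlap. Differences are log2 ratios of the highest window in each range, or of windows listed in both libraries. For regions listed in both libraries of a pair, windows of the pair were merged together. A local maximum was a window at or above all listed windows within 150 bp that had at least 3 listed windows within that reach, itself included. Kmt2a and Suz12 were the genes named, with the 3 stretches most like each. The planned lists of other PRC2, KMT2 and cell type marker genes were not run, because the gene table is of another build (GRCm38.p6). Both members matched the RefSeq promoter table by symbol. The merging, overlap and ratio steps were tested on simulated data. Alternatives covered thresholds, scaling, signal summary, position, merging, overlap and single Cbx3 sets. Python 3.11.15 with numpy 2.4.6, pandas 2.3.3 and matplotlib 3.10.9 was used.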

Additional observations from a re-analysis of the deposited data

Results flagged for a closer look

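The log2 difference of the highest window at Kmt2a, Cbx3 siRNA minus control, was -1.06 for Med26 and 1.44 for Cdk8, opposite signs for these parts of Mediator as deposited. With scaling by summed listed signal both were positive, at 1.77 and 1.29. At Suz12 the values were -0.93 for Med26 and 0.11 for Cdk8, but the Cdk8 value compares sites 500 bp apart and gives no direction, and sums over listed windows were lower for both, at -2.59 and -0.33. The difference between the antibodies was not tested, with 1 library per antibody and arm. The labels list inputs for Med26 apart from those of the other siRNA samples.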

How the results depend on the processing

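With no replicates, a log2 difference or width counted as moved when it changed by over 1.5 times and a position when it changed by 100 bp or more, and the cause was not tested unless stated. Relative to the genome-wide median of shared windows, the Pol II arms turned to 0.0011 at Kmt2a and 0.23 at Suz12, Med26 moved to -0.42 and -0.29, and control against untreated Pol II to 0.43 and 0.10. Scaling by summed listed signal, which moves with the number of windows listed, turned the Pol II arms to 0.11 and 0.34, Med26 to 1.77 and 1.90, Cdk8 at Suz12 to -0.041, and control against untreated Pol II to -0.73 and -1.06. Sums over listed windows gave -2.59 for Med26 and -0.33 for Cdk8 at Suz12, and 2.30 for Cdk8 at Kmt2a. With both arms restricted to windows above the control median, Med26 at Suz12 went to 0 bp after Cbx3 siRNA. Midpoints of the listed extent shifted by -175 bp for Pol II at Kmt2a and 200 bp for Med26 at Suz12. With 50% of the shorter region, 66.7% of Pol II control regions were listed again. Without either Cbx3 set, an alternative chosen after seeing the data, 12 to 31 stretches were listed in all other libraries, 31 of them without set 2, and Kmt2a and Suz12 were among both. The offset of Cbx3 from Pol II was -250 to -200 bp at Kmt2a and -600 to -550 bp at Suz12 with either set alone. Of 90 other rankings, 55 stayed within 1.5 times; the untreated Pol II rank of Kmt2a ranged from 5.02 to 38.8% from the top. No paired analysis was possible because each antibody had 1 library per siRNA arm. Few reads limit Cdk8, Cbx3 set 2 at Suz12 and Med26 at Suz12.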
